A study of Mus musculus with 33 samples.

Results

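A set of 34 genes that mark neurons and their synapses was followed through RNA libraries labelled as frontal bone of the mouse calvaria, the part of the skull vault that lies over the forebrain. The genes were chosen by name, and each was matched by its gene identifier to 1 of the 55401 genes of the deposited count table. All 34 were found, and all 34 passed the filter on low counts that kept 20073 genes for testing. Embryos were sampled at 11 stages, of which E8.5, E9, E9.5 and E10 were the first and E10.5, E11, E11.5 and E12 came next. The last were E12.5, E13.5 and E14.5, where E gives the embryonic day. Each stage had 3 polyA libraries, 33 in all. Stage is the only difference between the groups that the labels give, and no strain, treatment or sex is named in them. Whether libraries that share a stage stem from different embryos or pools is not stated. The p-values therefore measure only the spread between libraries of a stage, which may be technical. For each gene this spread was 1 estimate shared by all 11 stages.

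Neurons arise from dividing progenitors that leave the cell cycle under the control of proneural transcription factors. A young neuron first builds an axon from tubulins, microtubule-binding proteins and adhesion molecules, and genes for synaptic vesicles and for making and loading a transmitter are known to follow as it matures. In the embryonic head such cells lie in the brain beneath the skull vault and in cranial ganglia and nerves, whereas the frontal bone itself forms from mesenchyme. By these roles the 34 genes were divided into 20 early neuron genes, 10 synaptic and transmitter genes, and Map2, Mapt, Rbfox3 and Actl6b, 4 genes that are known to come on later in a neuron's maturation.

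The libraries held between 14516518 and 19964404 counts (median 17081223). Levels are given as CPM, the counts of a gene relative to the size of its library, adjusted for library composition but not for gene length. Some libraries stood apart. Genes for ribosomal proteins took between 4.73% and 9.53% of the counts in the 3 E12 libraries and 6.83% in the E13.5 library c, against 4.07% and 4.04% in the E13.5 libraries a and b. The E8.5 libraries had 5.05% to 5.41%, above the 4.73% of the E12 library c, which by this share alone did not stand apart. The libraries labelled E11.5 held transcripts that were near 0 in their neighbours: Ibsp, the gene for bone sialoprotein, averaged 0.0526 CPM at E11, 15.1 at E11.5, 0.0370 at E12, 0.204 at E12.5, 67.9 at E13.5 and 464.3 at E14.5. Whether the stage label of the E11.5 libraries is right could not be settled, so a high at E11.5 is a high of the libraries with that label, and its date rests on the label. Runx2, the factor that directs bone formation, was low at the first stages, with 0.576 CPM at E8.5, 15.4 CPM at E12.5 and 45.1 CPM at E14.5. Some results that rest on the E12 libraries, the E11.5 libraries or the E13.5 library c are given with and without them. Not every altered call is named. Among the changes of single genes that were checked, 5 gained a call and 1 lost it without the E11.5 and E12 libraries. Without the E12 libraries and the E13.5 library c, 15 gained a call and 2 lost it.

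The 34 genes had 2 highs in the time course. Together they took 0.0771% of all counts at E8.5, 0.349% at E10.5, 0.856% at E11.5, 0.423% at E12, 0.443% at E12.5, 0.585% at E13.5 and 0.215% at E14.5. The higher of these lay in the libraries labelled E11.5, whose stage is in doubt, and E13.5 was a second, local high. The stage with the highest mean was E11.5 for 22 of the 34 genes, E13.5 for 5, E12 for 4 and E11 for 3. Over all genes tested, 10.95% had their highest mean at E11.5, 8.13% at E13.5, 19.2% at E12 and 5.36% at E11. The 5 genes that were highest at E13.5 were Nhlh1, Stmn2, Gap43, Cntn2 and Syp. For Stmn2 this rests on library c, as E13.5 libraries a and b (217.0 and 225.2 CPM) lay below every E11.5 library (226.6 to 230.7 CPM). The leads of Nhlh1 over E12.5 and of Syp over E11.5 were small. With the E11.5 libraries left out, 16 of the 34 genes were highest at E11, 14 at E13.5 and 4 at E12. Of all genes 9.63%, 10.4% and 19.5% were then highest at these stages. With the E12 libraries left out as well, 19 were highest at E11 and 15 at E13.5, where 11.3% and 16.6% of all genes were. In bulk RNA, fewer neurons and less RNA per neuron cannot be told apart, and this holds for every value that follows.

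**Figure D1:**
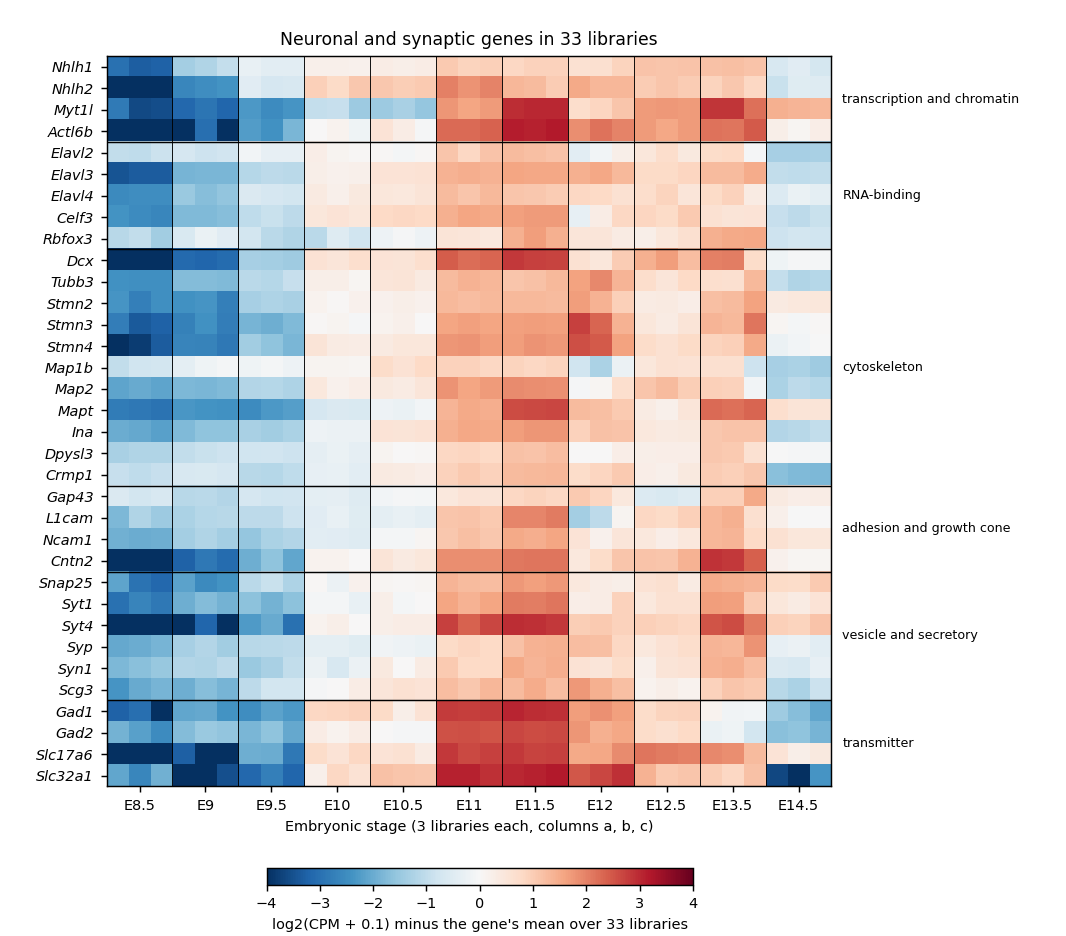
Each row is a gene, grouped by role, and each column is a library in order of stage. Colour gives log2(CPM + 0.1) minus the gene's mean over the 33 libraries, with the scale ending at -4 and 4. For 22 of the 34 genes the highest stage mean is at E11.5, and most are high again at E13.5, unlike Gad1 and Gad2.

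At E10.5 the whole set stood above E8.5. All 34 genes were higher at E10.5 at a Benjamini-Hochberg adjusted p below 0.05 in edgeR's quasi-likelihood test, where 28.2% of all genes tested were higher. The median log2 fold change was 2.76 over the 34 genes and 0.09 over all genes. Slc17a6 and Actl6b had only 2 and 1 counts over the E8.5 libraries, so no fold is given for them. Among the others the change ran from 0.57 for Gap43, which codes for a growth cone protein, to 6.01 for Dcx, which codes for the microtubule protein doublecortin. The E10.5 libraries had 76.9, 80.2 and 78.6 CPM of Gap43, against 55.7, 49.6 and 53.0 CPM in the E8.5 libraries, a small difference without overlap. For Crmp1, which codes for a mediator of collapsin signalling in axons, they had 220.5, 214.6 and 206.4 CPM against 89.4, 84.4 and 89.6 CPM at E8.5 (1.28 ± 0.07, adjusted p = 8.69e-15). The values in parentheses here and below are the log2 fold change ± its SE and the adjusted p of the same test.

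Between E10.5 and E12.5 the genes parted. At E12.5, 18 of the 34 were higher and 2 lower than at E10.5, where 18.8% of all genes were higher and 17.2% lower. Those that were higher comprised 8 of the 20 early genes, all 4 later-maturing genes, and 6 of the 10 synaptic and transmitter genes. Myt1l, for a zinc finger factor that represses other cell fates in neurons, had the largest change, with 34.6, 35.7 and 34.7 CPM at E12.5 against 3.81, 4.27 and 3.54 CPM at E10.5 (3.17 ± 0.16, adjusted p = 3.73e-16). Slc17a6, for the vesicular glutamate transporter VGLUT2, came next with 43.5, 41.6 and 40.3 CPM at E12.5 against 14.46, 14.98 and 12.3 CPM at E10.5 (1.59 ± 0.16, adjusted p = 4.71e-09). In neither gene did the groups overlap. The 2 that were lower were Gap43 (-0.47 ± 0.12, adjusted p = 0.00205) and Scg3, for secretogranin III of dense-core vesicles (-0.37 ± 0.13, adjusted p = 0.0259). Both genes kept their call without the E12 libraries and the E13.5 library c, a fit in which 25 genes were higher and 4 lower. Of the calls over all genes 50.02% were higher in that fit, against 52.23% in the full fit. The share of all genes that was called in that fit is not given, here or below.

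The size of the high at E13.5 was measured by setting E13.5 against the mean of E12.5 and E14.5 on the log2 scale. E13.5 was singled out with earlier results of these data known. The calls therefore describe this high and are no independent test of it. In this contrast 33 of the 34 genes were higher at E13.5 and none was lower, where 29.0% of all genes were higher and 22.6% lower. The exception was Gad2 (0.13 ± 0.11, adjusted p = 0.358). The median change was 1.03 over the 34 genes and 0.06 over all genes. For 21 of the 34 genes all 3 E13.5 libraries lay above all 6 libraries of E12.5 and E14.5, which held for 12.03% of all genes. These 21 took in all 6 vesicle and secretory genes, 12 of the 20 early genes and 3 of the 4 later-maturing genes, but none of the 4 transmitter genes. In 9 genes the E13.5 mean did not exceed the E12.5 mean, so their place in the contrast rests on the low level at E14.5. Without the E12 libraries and the E13.5 library c, all 34 genes were higher in this contrast. Of the calls over all genes 59.99% were higher in that fit, against 56.22% in the full fit.

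The steps into and out of E13.5 share its 3 libraries and are given side by side. At E13.5, 20 of the 34 genes were higher and 4 lower than at E12.5, where 27.2% of all genes were higher and 25.9% lower. Without the E12 libraries and the E13.5 library c these counts were 24 and 3, and 54.59% of the calls over all genes were higher, against 51.19% in the full fit. At E14.5 all 34 genes were lower than at E13.5, where 26.9% of all genes were lower and 24.0% higher, and this count was the same without those libraries. The median change of that step was -1.66 over the 34 genes and -0.01 over all genes. The level at E14.5 had a median of 31.7% of the level at E13.5 and ran from 2.9% for Slc32a1 to 67.5% for Snap25.

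**Figure D2:**
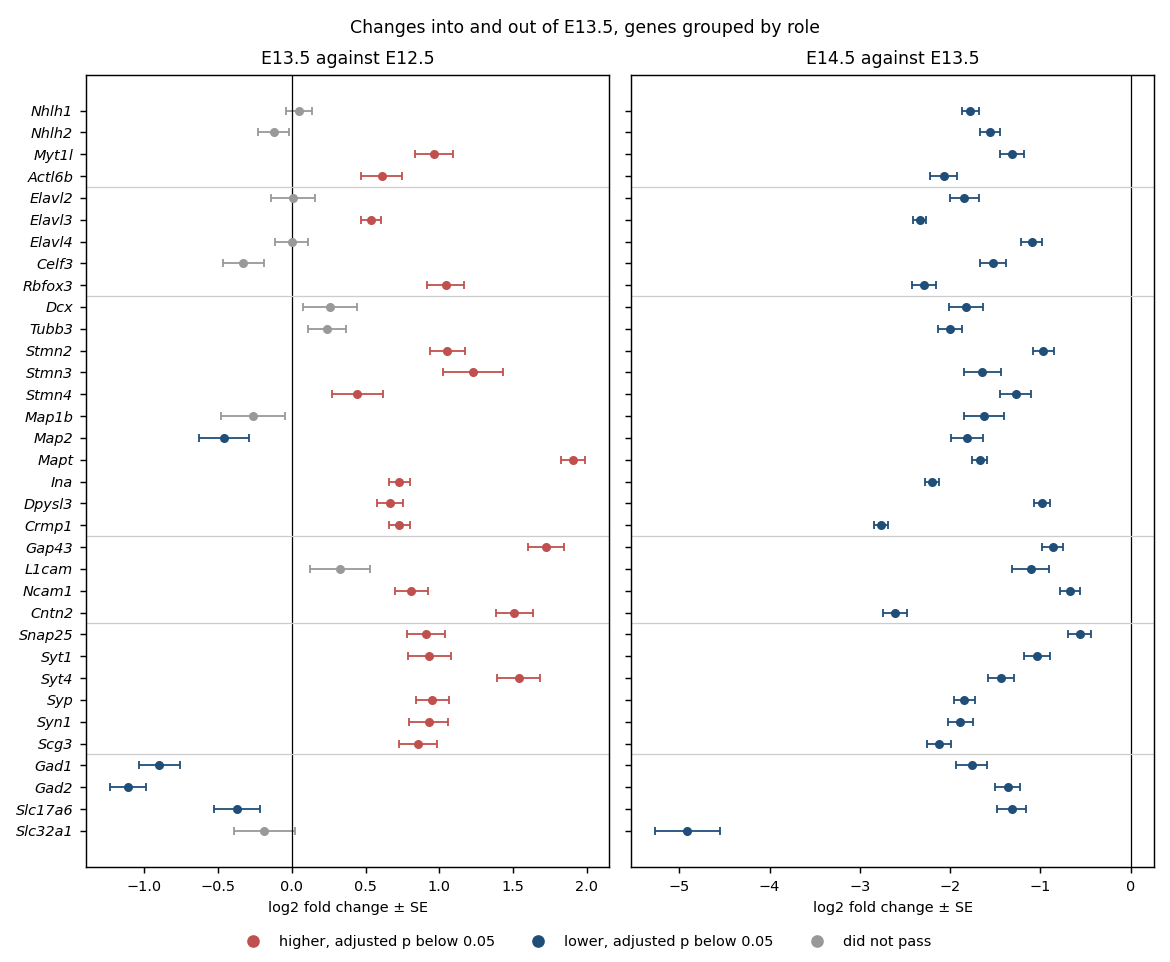
Points are log2 fold changes with SE bars from edgeR, for E13.5 against E12.5 on the left and E14.5 against E13.5 on the right, with genes grouped by role and red for higher, blue for lower and grey for not passed. On the left 20 genes are higher and 4 lower at E13.5, and on the right all 34 are lower at E14.5.

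Of the 4 transcription and chromatin genes, Nhlh1 and Nhlh2 code for bHLH factors of newborn neurons and Actl6b for a neuronal subunit of the BAF chromatin remodelling complex. Nhlh1 had the highest level per length in the group, 11.2 CPM per kb. Its libraries had 47.8, 49.2 and 47.3 CPM at E13.5, against 46.8, 45.7 and 46.8 CPM at E12.5 and 13.6, 15.6 and 12.9 CPM at E14.5. The E13.5 libraries lay just above those of E12.5, and that difference did not pass (0.05 ± 0.09, adjusted p = 0.648). Actl6b stood furthest above its neighbours, with 28.1, 27.8 and 34.4 CPM at E13.5, against 20.6, 18.3 and 20.3 CPM at E12.5 and 7.38, 6.53 and 7.51 CPM at E14.5 (1.34 ± 0.12, adjusted p = 1.55e-10 against their mean). Nhlh2 differed least, with 32.8, 37.2 and 31.6 CPM at E13.5, against 35.9, 38.6 and 36.1 CPM at E12.5 and 9.52, 12.48 and 12.4 CPM at E14.5, so its E13.5 libraries overlapped those of E12.5.

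Nhlh2 was also the only one of the 34 genes that was lower at E11.5 than at E11. At that step 14 genes were higher, where 10.7% of all genes were higher and 12.3% lower. The E11.5 libraries had 44.1, 43.0 and 35.7 CPM of Nhlh2, against 70.9, 61.0 and 69.9 CPM in the E11 libraries, without overlap (-0.72 ± 0.10, adjusted p = 3.77e-06). Myt1l had the largest rise of the step, with 83.1, 85.8 and 86.9 CPM at E11.5 against 36.2, 32.0 and 34.6 CPM at E11 (1.32 ± 0.13, adjusted p = 9.06e-09). Without the E12 libraries and the E13.5 library c, 22 genes were higher and 1 lower at this step. Of the calls over all genes 46.89% were higher in that fit, against 46.69% in the full fit. How many of all genes were called there is not given, so the 22 cannot be read against the 10.7%.

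The 5 RNA-binding genes code for the neuronal Hu proteins (Elavl2, Elavl3, Elavl4), the splicing regulator Celf3 and NeuN, a marker of mature neurons (Rbfox3). Elavl3 had the highest level per length, 19.0 CPM per kb. Its libraries had 208.8, 207.7 and 242.1 CPM at E13.5, against 146.5, 148.5 and 158.3 CPM at E12.5 and 43.9, 42.6 and 43.9 CPM at E14.5. Each E13.5 library lay above both neighbouring stages. Rbfox3 stood furthest above its neighbours, with 31.3, 34.1 and 34.3 CPM at E13.5, against 13.8, 16.1 and 18.4 CPM at E12.5 and 6.63, 7.01 and 6.73 CPM at E14.5 (1.67 ± 0.11, adjusted p = 1.69e-13). Elavl4 differed least, and its E13.5 libraries, at 57.6, 64.4 and 42.8 CPM, overlapped the E12.5 libraries, at 55.1, 62.6 and 47.1 CPM.

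Elavl2 ended below its start, 1 of 4 genes that did. Its libraries had 19.2, 19.3 and 19.7 CPM at E14.5 against 24.0, 23.8 and 26.7 CPM at E8.5 (-0.36 ± 0.16, adjusted p = 0.0448). The groups did not overlap, but the call was lost in each fit that left out an E14.5 or E8.5 library, with the letter of the libraries as a block, and with DESeq2's size factors. Scaled by library totals alone, the change had the opposite sign (0.08, adjusted p = 0.718).

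The 11 cytoskeletal genes were the largest group. Tubb3, the neuronal beta tubulin gene, had the highest level per length of all 34, 343.1 CPM per kb. Its libraries had 732.9, 722.2 and 1130 CPM at E13.5, against 749.5, 644.4 and 798.3 CPM at E12.5 and 235.9, 198.4 and 210.2 CPM at E14.5. At E13.5 libraries a and b lay within the range of E12.5 and library c above it, and the change against E12.5 did not pass (0.24 ± 0.13, adjusted p = 0.119). Mapt, which codes for the axonal protein tau, had the largest change of the 34 genes at this step, with 223.7, 214.4 and 233.7 CPM at E13.5 against 59.0, 54.1 and 65.96 CPM at E12.5, 3.75-fold higher (1.91 ± 0.08, adjusted p = 3.02e-17). Its groups were far apart. Map2, for a microtubule protein of dendrites, went the other way, with 299.1, 294.0 and 144.7 CPM at E13.5 against 331.8, 373.6 and 308.0 CPM at E12.5 (-0.46 ± 0.17, adjusted p = 0.0233). Library c was far below libraries a and b, and without it Map2 did not pass (-0.19, adjusted p = 0.239).

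Library c of E13.5 lay apart from libraries a and b in several cytoskeletal genes. It was above both in the short genes Stmn3, Tubb3 and Stmn4 and far below both in the 3 longest, Dcx, Map1b and Map2, but genes of middle length had no such order: Mapt and Crmp1 were slightly above in library c and the shorter Dpysl3 was below. Stmn3, 1 of 3 genes for stathmins, which bind tubulin in growing axons, has 1136 exonic bases and had 136.0, 132.2 and 236.6 CPM at E13.5 against 73.5, 66.3 and 75.9 CPM at E12.5 (1.23 ± 0.20, adjusted p = 8.97e-06). Stmn4, with 1916 bases, had 43.1, 45.1 and 66.1 CPM at E13.5 against 38.5, 35.7 and 39.2 CPM at E12.5 (0.44 ± 0.17, adjusted p = 0.0296), a call that was lost without library c (0.22, adjusted p = 0.282). In both genes libraries a and b alone lay above E12.5. Dcx, with 12647 bases, had 325.8, 336.2 and 134.6 CPM at E13.5 against 216.0, 259.2 and 190.8 CPM at E12.5. It overlapped through library c, and its change did not pass with that library (0.26 ± 0.18, adjusted p = 0.243) but passed without it (0.58, adjusted p = 0.000116). Map1b, for a microtubule protein of growing axons, has 15846 bases and had 899.4, 885.3 and 319.0 CPM at E13.5 against 788.3, 879.0 and 857.1 CPM at E12.5. Its change was -0.26 with library c and 0.08 without it, and neither passed.

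The remaining cytoskeletal genes were higher at E13.5 than at E12.5. Stmn2, the third stathmin gene, had 217.0, 225.2 and 290.1 CPM at E13.5 against 117.7, 121.3 and 113.8 CPM at E12.5 (1.05 ± 0.12, adjusted p = 1.91e-08). Ina, for the neurofilament partner alpha-internexin, and Dpysl3 and Crmp1, for collapsin response mediators, were higher by 0.67 to 0.73 on the log2 scale. Crmp1 then had the largest drop of this group, with 53.1, 50.1 and 49.1 CPM at E14.5 against 347.5, 328.3 and 362.1 CPM at E13.5, 6.82-fold lower (-2.77 ± 0.08, adjusted p = 5.96e-22).

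Of the 4 adhesion and growth cone genes, Gap43 had the highest level per length, 62.1 CPM per kb. Its libraries had 162.9, 161.2 and 238.5 CPM at E13.5 against 57.3, 54.6 and 58.5 CPM at E12.5, 3.30-fold higher (1.72 ± 0.12, adjusted p = 8.24e-13). At E14.5 they had 105.7, 99.96 and 103.3 CPM, below every E13.5 library but above every E12.5 library. Cntn2, for the axonal adhesion molecule contactin 2, stood furthest above its neighbours in the group, with 355.8, 344.3 and 250.2 CPM at E13.5, against 105.6, 103.0 and 125.4 CPM at E12.5 and 54.3, 50.6 and 50.6 CPM at E14.5 (2.06 ± 0.10, adjusted p = 1.25e-15). L1cam, for an adhesion molecule of axon bundles, differed least, with 91.8, 96.9 and 57.0 CPM at E13.5 against 64.5, 61.5 and 70.3 CPM at E12.5. Its library c fell below all 3 E12.5 libraries, and the change did not pass with that library (0.33 ± 0.20, adjusted p = 0.182) but passed without it (0.53, adjusted p = 0.0284). Ncam1, for the neural cell adhesion molecule, was higher at E13.5 than at E12.5 (0.81 ± 0.11, adjusted p = 4.54e-07).

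The 6 vesicle and secretory genes moved together at E13.5. Snap25 codes for a membrane fusion protein, Syt1 and Syt4 for synaptotagmins, Syp for synaptophysin, Syn1 for synapsin I and Scg3 for secretogranin III. All 6 were higher at E13.5 than at E12.5, by 0.85 to 1.54 on the log2 scale, and all 6 were lower at E14.5 than at E13.5. Scg3 had the highest level per length, 8.18 CPM per kb, and its libraries had 31.2, 36.2 and 34.3 CPM at E13.5, against 18.3, 19.6 and 18.3 CPM at E12.5 and 7.54, 6.75 and 9.02 CPM at E14.5. Syt4 stood furthest above its neighbours, with 31.7, 34.2 and 23.5 CPM at E13.5, against 10.8, 10.2 and 9.85 CPM at E12.5 and 10.6, 10.2 and 12.1 CPM at E14.5 (1.49 ± 0.12, adjusted p = 3.21e-11). Every E13.5 library of both genes lay above every library of the neighbouring stages. Snap25 differed least, with 32.6, 31.5 and 29.9 CPM at E13.5, against 17.2, 18.2 and 14.53 CPM at E12.5 and 19.7, 19.5 and 24.3 CPM at E14.5 (0.74 ± 0.11, adjusted p = 1.66e-06). Its change at E14.5 against E13.5 was the smallest of the 34 genes (-0.57 ± 0.13, adjusted p = 0.000462). Syp had its highest mean at E13.5, 57.2 ± 11.2 CPM, against 50.1 ± 4.59 CPM at E11.5 (SD, n = 3 each), a gap smaller than the spread at E13.5.

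The 4 transmitter genes took another course from the vesicle genes. Gad1 and Gad2 code for the enzymes that make the inhibitory transmitter GABA, Slc32a1 for the transporter that loads it into vesicles, and Slc17a6 for the transporter that loads the excitatory transmitter glutamate. Their promoter windows are shown because these genes part from the other synaptic genes at E13.5. Each window is RefSeq sequence of build GRCm38.p6 on the plus strand, from 250 bases before a transcript's start to 50 after it. The windows lie at chr2:70561879-70562178 for Gad1, chr2:22622077-22622376 for Gad2, chr2:158610508-158610807 for Slc32a1 and chr7:51621580-51621879 for the first of the 2 windows of Slc17a6. In GENCODE M21 the genes span chr2:70553072-70602014 for Gad1, chr2:22622205-22693874 for Gad2, chr2:158610767-158615748 for Slc32a1 and chr7:51622006-51671119 for Slc17a6, so the windows of Gad2 and Slc32a1 reach past the annotated start, that of Gad1 lies within the gene and that of Slc17a6 lies upstream of it. Capitals mark matches on either strand to the E-boxes CAGCTG and CATCTG, which bHLH factors can bind, and to GGACAG, part of the site of the repressor REST.
Gad1: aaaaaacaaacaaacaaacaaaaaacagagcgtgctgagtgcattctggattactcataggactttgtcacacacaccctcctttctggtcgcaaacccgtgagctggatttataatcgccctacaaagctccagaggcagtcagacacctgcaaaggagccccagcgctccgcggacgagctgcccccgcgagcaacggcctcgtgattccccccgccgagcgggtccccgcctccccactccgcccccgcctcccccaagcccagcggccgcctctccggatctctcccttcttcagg
Gad2: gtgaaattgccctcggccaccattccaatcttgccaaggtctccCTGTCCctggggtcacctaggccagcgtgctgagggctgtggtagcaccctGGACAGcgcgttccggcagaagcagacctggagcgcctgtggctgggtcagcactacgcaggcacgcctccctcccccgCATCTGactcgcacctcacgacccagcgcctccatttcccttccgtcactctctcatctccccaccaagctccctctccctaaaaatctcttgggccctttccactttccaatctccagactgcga
Slc32a1: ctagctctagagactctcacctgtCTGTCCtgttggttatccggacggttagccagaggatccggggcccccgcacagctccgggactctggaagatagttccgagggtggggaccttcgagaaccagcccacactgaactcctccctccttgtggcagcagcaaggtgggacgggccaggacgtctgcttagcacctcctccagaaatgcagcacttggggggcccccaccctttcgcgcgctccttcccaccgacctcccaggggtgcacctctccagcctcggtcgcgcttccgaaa
Slc17a6: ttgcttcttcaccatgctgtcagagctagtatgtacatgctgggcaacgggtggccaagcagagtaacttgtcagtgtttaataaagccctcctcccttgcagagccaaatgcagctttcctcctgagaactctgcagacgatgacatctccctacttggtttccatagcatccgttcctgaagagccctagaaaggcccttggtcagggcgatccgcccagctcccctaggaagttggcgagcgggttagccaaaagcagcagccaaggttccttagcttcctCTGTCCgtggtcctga

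The Gad1 window held no match, the Gad2 window held 1 to CATCTG and 2 to GGACAG, and the windows of Slc32a1 and Slc17a6 held 1 to GGACAG each. Entries were found for 26 of the 34 genes, with 49 windows. CAGCTG was in 26.5% of these 49 windows and in 16.3% of all 32851 windows of this length. CATCTG was in 34.7% of the 49 windows and in 17.2% of all windows, and GGACAG was in 28.6% and 22.2%. A GGACAG match can share bases with an adjoining E-box, and windows of 1 gene can overlap. A match is a description of letters and not a bound site.

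All 3 GABA genes were highest at E11.5 and had no high at E13.5. Gad2 averaged 11.7 CPM at E10.5, 70.2 at E11, 74.5 at E11.5, 35.8 at E12, 19.8 at E12.5, 9.12 at E13.5 and 3.57 at E14.5. Its libraries had 9.81, 10.503 and 7.04 CPM at E13.5 against 19.8, 18.7 and 20.8 CPM at E12.5 (-1.11 ± 0.12, adjusted p = 1.01e-08). Gad1 had 5.30, 4.28 and 4.45 CPM at E13.5 against 8.09, 8.88 and 9.13 CPM at E12.5 (-0.90 ± 0.14, adjusted p = 4.33e-06). Neither gene's groups overlapped, and both fell at the step at which all 6 vesicle genes rose. Slc32a1 had 3.72, 3.31 and 4.26 CPM at E13.5 against 4.93, 3.84 and 4.03 CPM at E12.5, which overlapped (-0.18 ± 0.20, adjusted p = 0.461). At E14.5 it had 0.0535, 0 and 0.275 CPM, 7 counts in all, against 200 counts in the E13.5 libraries (-4.91 ± 0.36, adjusted p = 1.91e-12). Its contrast of E13.5 with the mean of both neighbours (2.36 ± 0.25, adjusted p = 4.87e-09) rests on those 7 counts.

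Slc17a6 had the highest level per length of the 4, 4.78 CPM per kb. Its libraries had 37.2, 35.8 and 24.0 CPM at E13.5 against 43.5, 41.6 and 40.3 CPM at E12.5, and the difference passed narrowly (-0.37 ± 0.16, adjusted p = 0.0488). Library c was the lowest, and the call was lost without it (-0.20, adjusted p = 0.279) and without any 1 of the E12.5 libraries. At E14.5 the libraries had 14.3, 11.6 and 13.0 CPM, below every E13.5 library (-1.32 ± 0.17, adjusted p = 1.07e-07). The level at E13.5 was 48.4% of that at E11.5 for Slc17a6, 23.2% for Slc32a1 and 12.2% for both Gad1 and Gad2. Among the 6 vesicle genes this share had a median of 81.5% and ran from 65.2% to 114%.

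**Figure D3:**
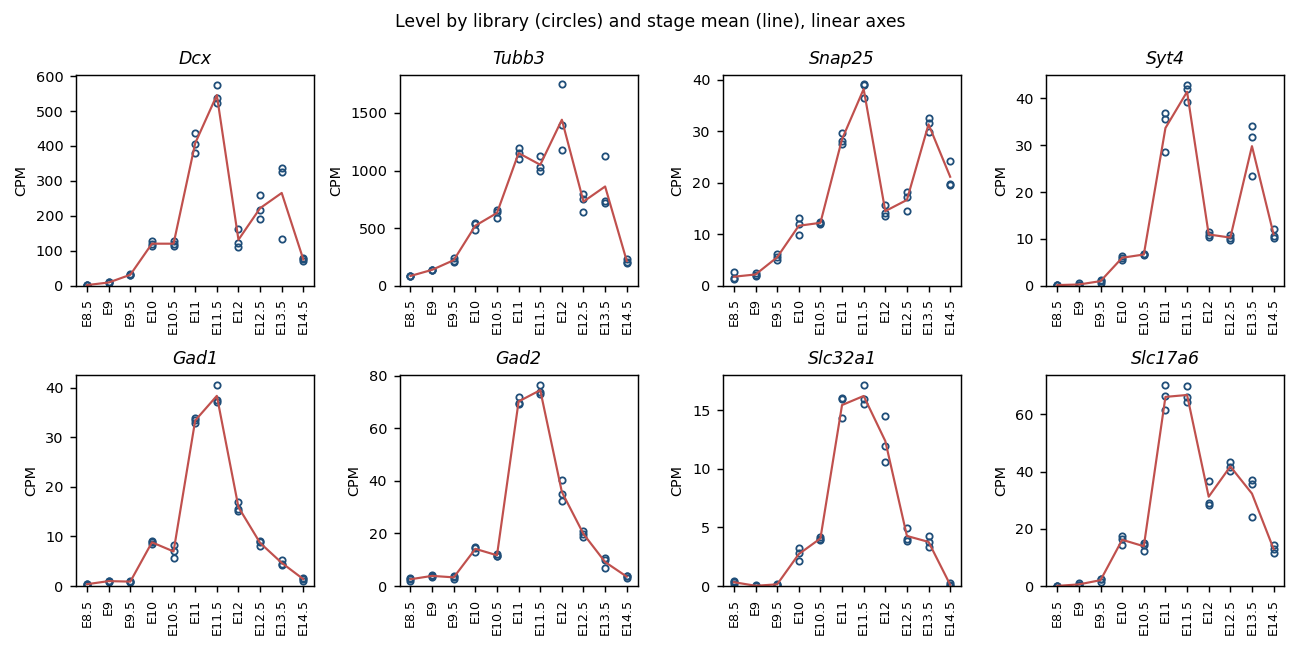
CPM of 8 genes against stage on linear axes, with a circle for each library and a line through the stage means. Snap25 and Syt4 are high at E11.5 and again at E13.5, Gad1, Gad2 and Slc32a1 are high at E11.5 and not at E13.5, and Dcx and Tubb3 have 1 E13.5 library apart from the other 2.

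Early and synaptic genes were compared by a score, the median over a group's genes of log2 CPM minus each gene's own mean over stages, as a description with no test. At E8.5 the early genes scored -2.46 and the 10 synaptic and transmitter genes -2.51. At E9.5 the scores were -1.08 and -1.77, at E10 they were 0.10 and 0.13, and at E11 they were 1.30 and 1.99. At E9.5 and E11 the GABA genes scored -2.30 and 2.77, while the vesicle genes scored -1.20 and 1.25, close to the early genes. Without the GABA genes the synaptic and transmitter genes scored -1.32 and 1.32. A steep rise was not confined to the GABA genes. Slc17a6 had 2.47, 2.41 and 1.27 CPM at E9.5 and 70.3, 61.5 and 66.6 CPM at E11. The vesicle gene Syt4 had 1.06, 1.27 and 0.608 CPM at E9.5 and 36.8, 28.6 and 35.6 CPM at E11. At E11.5 the early genes scored 1.41, the vesicle genes 1.59 and the GABA genes 2.95. At E12.5 the early and the synaptic and transmitter genes were level, at 0.68 each. At E13.5 the early genes scored 1.09, the vesicle genes 1.39 and the GABA genes -0.04. At E14.5 the early genes scored -0.28, the vesicle genes 0.07 and the GABA genes -1.82. The early minus vesicle difference ran from -0.36 to -0.19 in the E13.5 libraries and from 0.08 to 0.28 in the E12.5 libraries, with no overlap. A negative difference was not particular to E13.5. It ran from -0.46 to -0.25 at E14.5, from -0.20 to -0.15 at E11.5 and from -0.17 to -0.11 at E8.5. The later-maturing genes scored 2.25 at E11.5, 0.80 at E12.5, 1.84 at E13.5 and -0.30 at E14.5.

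**Figure D4:**
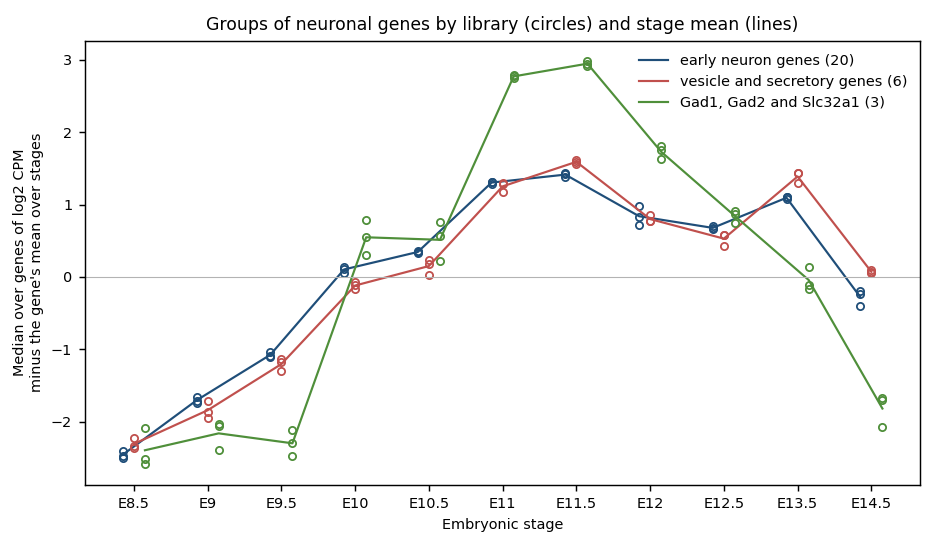
The score, in log2 units, of 20 early neuron genes, 6 vesicle and secretory genes and the GABA genes Gad1, Gad2 and Slc32a1 against stage, with a circle for each library and a line through stage means. The early and vesicle genes are high at E11.5 and E13.5, while the GABA genes stand at 2.95 at E11.5 and at -0.04 at E13.5.

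The calls of each class are read against all genes tested, of which 27.2% were higher and 25.9% lower at E13.5 against E12.5. Of the 20 early genes 11 were higher and none lower. Of the 4 later-maturing genes 3 were higher and Map2 was lower, and of the 10 synaptic and transmitter genes 6 were higher and 3 lower, a share of lower genes near that of all genes. Whether these shares differ between the classes was not tested.

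At the end of the series most of the set stood above its start. At E14.5, 30 of the 34 genes were higher and 4 lower than at E8.5, where 41.1% of all genes were higher and 33.5% lower. The 4 were Crmp1, Map1b, Elavl2 and Slc32a1. Crmp1 had 53.1, 50.1 and 49.1 CPM at E14.5 against 89.4, 84.4 and 89.6 CPM at E8.5 (-0.79 ± 0.07, adjusted p = 9.64e-11), and it passed in every alternative run. Map1b had 227.1, 239.3 and 215.2 CPM at E14.5 against 291.0, 329.0 and 343.3 CPM at E8.5 (-0.50 ± 0.22, adjusted p = 0.04). Its groups did not overlap, but the call was lost in each fit that left out an E14.5 or E8.5 library. Slc32a1 had 0.0535, 0 and 0.275 CPM at E14.5 against 0.351, 0.213 and 0.409 CPM at E8.5, which overlapped, and these are 7 and 15 counts in all.

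At the step to E12 the longer of the 34 genes tended to fall more than the shorter ones. At E12, 23 of the 34 genes were lower and 3 higher than at E11.5, where 35.6% of all genes were lower and 33.3% higher. The 3 higher genes were Tubb3, Stmn3 and Stmn4, with 1868, 1136 and 1916 exonic bases, where the median of the 34 genes is 5710 bases. Tubb3 had 1398, 1751 and 1177 CPM at E12 against 992.9, 1035 and 1123 CPM at E11.5, without overlap (0.46 ± 0.13, adjusted p = 0.00243). Stmn3 had 352.3, 267.3 and 139.5 CPM at E12 against 165.2, 167.9 and 167.7 CPM at E11.5, and overlapped through library c of E12 (0.60 ± 0.20, adjusted p = 0.00878). None of the 3 passed with libraries scaled by their totals, or with the trend on gene length removed. L1cam changed most, with 13.9, 17.6 and 39.0 CPM at E12 against 140.7, 141.0 and 154.5 CPM at E11.5 (-2.61 ± 0.22, adjusted p = 5.86e-11). Dcx had 121.9, 110.6 and 162.2 CPM at E12 against 575.8, 538.0 and 523.5 CPM at E11.5 (-2.05 ± 0.19, adjusted p = 3.69e-10).

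Across the 34 genes the change at E12 against E11.5 correlated with log exonic length at r = -0.73 (Spearman's rho = -0.75), and across all 20073 tested genes at r = -0.16 (rho = -0.30). These are correlations across genes, which are not independent replicates, and all points share the same 6 libraries. Of the 17 longer genes 16 were lower and none higher, and of the 17 shorter genes 7 were lower and 3 higher. With the trend on gene length removed in each library, 24 of the 34 genes were lower and 2 higher, and r was -0.34. At E12.5 against E12, 10 genes were higher and 16 lower, where 32.0% of all genes were higher and 31.0% lower, and r was 0.73. With the trend removed 4 were higher and 18 lower. The contrast of E13.5 with the mean of its neighbours had r = -0.26, and 33 genes were higher with the trend removed. The part of gene length and of the ribosomal share in these results was not tested further.

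**Figure D5:**
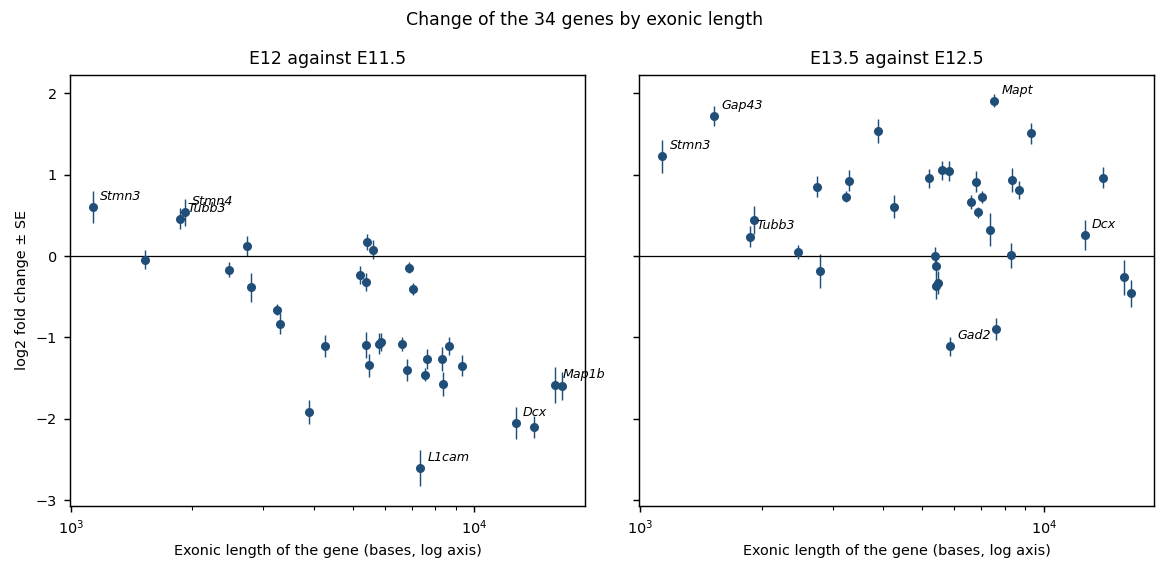
Log2 fold change with SE of each of the 34 genes against exonic length in bases on a log axis, for E12 against E11.5 on the left and E13.5 against E12.5 on the right. On the left Stmn3, Stmn4 and Tubb3 lie above 0 and long genes such as Dcx lie below it (r = -0.73), and on the right the slope is slight (r = -0.22).

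Further genes of neurons were read from lists of 97 genes, of which 95 were tested. Of these, 77 were higher and 5 lower at E10.5 against E8.5, 46 higher and 22 lower at E13.5 against E12.5, and 6 higher and 68 lower at E14.5 against E13.5. Of all genes tested 28.2% were higher and 21.3% lower in the first of these steps, 27.2% and 25.9% in the second and 24.0% and 26.9% in the third, so the share of the lists that was lower at E13.5 lay near that of all genes. Of 20 genes of vesicle release, 14 were higher and 2 lower at E13.5 against E12.5. Sncg, for gamma-synuclein, which also stands in the list of peripheral neuron markers, averaged 76.9 CPM at E13.5 against 1.62 CPM at E12.5 (5.58 ± 0.27, adjusted p = 4.89e-16). Cplx1, for complexin 1, averaged 17.9 CPM at E13.5 against 2.62 CPM at E12.5 (2.78 ± 0.21, adjusted p = 4.28e-12). Of 12 genes for neurofilaments, tubulins and axonal transport, 9 were higher and none lower. Nefl, for the light neurofilament subunit, averaged 99.9 CPM at E13.5 against 7.84 CPM at E12.5 (3.67 ± 0.11, adjusted p = 8.05e-21). Of 21 genes for postsynaptic proteins and channels, 10 were higher and 6 lower, and Grin2b, for a glutamate receptor subunit, averaged 23.2 CPM at E13.5 against 5.48 CPM at E12.5 (2.09 ± 0.31, adjusted p = 2e-06).

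For upstream factors the counts at E13.5 lay near the shares of all genes, 27.2% higher and 25.9% lower, and those at E14.5 did not, where 24.0% of all genes were higher and 26.9% lower. Of 18 proneural and early factors 6 were higher and 6 lower at E13.5 against E12.5, and 15 were lower and none higher at E14.5 against E13.5. Neurod2, for a bHLH factor of forebrain neurons, averaged 1.53 CPM at E14.5 against 124.1 CPM at E13.5 (-6.34 ± 0.18, adjusted p = 9.92e-20). Of 9 other neuronal RNA-binding and splicing genes 3 were higher and 3 lower at E13.5, again near those shares, and all 9 were lower at E14.5 against E13.5. Of 12 other transmitter genes tested 3 were higher and 3 lower at E13.5, also near them, and Th, for the enzyme that starts the synthesis of dopamine and noradrenaline, averaged 12.2 CPM at E13.5 against 2.25 CPM at E12.5 (2.43 ± 0.18, adjusted p = 5.65e-12). Slc17a7, for the vesicular glutamate transporter VGLUT1, averaged 1.74 CPM at E14.5 against 22.3 CPM at E13.5 (-3.69 ± 0.33, adjusted p = 1.65e-10). Rest, for a repressor of neuron genes in other cells, averaged 59.4 CPM at E13.5 against 74.2 CPM at E12.5 (-0.32 ± 0.10, adjusted p = 0.00874). At E14.5 Rest averaged 74.3 CPM, against 59.4 CPM at E13.5 (0.32 ± 0.10, adjusted p = 0.00874). The other genes of the repressor list did not follow Rest. Rcor1 was higher at E13.5 (0.32 ± 0.11, adjusted p = 0.0147) and lower at E14.5 (-0.39 ± 0.11, adjusted p = 0.00323). Rcor2 was lower at E13.5 (-0.43 ± 0.10, adjusted p = 0.000587) and again at E14.5 (-1.80 ± 0.10, adjusted p = 7.43e-15). The summed level of the list averaged 362.5 CPM at E12.5, 312 CPM at E13.5 and 192 CPM at E14.5.

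Markers of the cells that could hold these transcripts moved beside them, and their part in the results was not tested. At E13.5 against E12.5, 27.2% of all genes were higher and 25.9% lower, and the counts of short lists are coarse beside these shares. The lists share a few genes: Sncg is a peripheral neuron marker and a vesicle release gene, and Fabp7 marks both progenitors and Schwann cell precursors. All 8 markers of peripheral sensory and autonomic neurons were higher at E13.5 than at E12.5. Their summed level ran from 309.8 to 471.2 CPM in E13.5 libraries and from 38.7 to 40.3 CPM in E12.5 libraries. Prph, for the intermediate filament peripherin, averaged 158.2 CPM at E13.5 against 3.13 CPM at E12.5 (5.66 ± 0.23, adjusted p = 1.06e-17). Of 9 markers of cortical and forebrain neurons 5 were higher and 2 lower, with sums of 567.9 to 742.8 CPM at E13.5 against 471.4 to 493.6 CPM at E12.5. Of 11 neural progenitor markers none was higher and 9 were lower, with sums of 1219 to 1459 CPM at E13.5 against 1960 to 2127 CPM at E12.5. Markers of mesenchyme and osteoblasts gave 7 of 10 higher, with sums of 2020 to 2050 CPM at E13.5 against 511.9 to 562 CPM at E12.5. Of the other lists, 5 of 6 Schwann cell precursor markers, 3 of 3 neuroendocrine markers, 6 of 6 skeletal muscle markers, 5 of 7 late glial markers and 2 of 4 meningeal markers were higher, and 1 meningeal marker was lower.

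The marker lists split at E14.5 against E13.5, where 24.0% of all genes were higher and 26.9% lower. Of the 9 cortical and forebrain markers 8 were lower, with sums of 129.3 to 134.9 CPM at E14.5 against 567.9 to 742.8 CPM at E13.5. Neurod6, for a factor of cortical projection neurons, averaged 2.72 CPM at E14.5 against 139.7 CPM at E13.5 (-5.67 ± 0.16, adjusted p = 7.5e-20). All 11 progenitor markers were lower, with sums of 316.5 to 333.5 CPM at E14.5 against 1219 to 1459 CPM at E13.5. The 8 peripheral neuron markers gave 1 higher and 4 lower, and their sums of 297.3 to 319 CPM at E14.5 overlapped the 309.8 to 471.2 CPM at E13.5. Of 10 markers of mesenchyme and osteoblasts 7 were higher and none lower, with sums of 2981 to 3140 CPM at E14.5 against 2020 to 2050 CPM at E13.5. Of the other lists, muscle had 4 of 6 higher, meninges 4 of 4 lower, Schwann cell precursors 1 higher and 3 lower of 6, late glia 1 higher and 4 lower of 7, and neuroendocrine cells 2 of 3 lower.

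The high at E11.5 had its own marker values. The cortical and forebrain sums ran from 788.3 to 803.2 CPM at E11.5 against 455.3 to 467.8 CPM at E11, and the progenitor sums from 1533 to 1566 CPM at E11.5 against 2053 to 2131 CPM at E11. The peripheral neuron sums ran from 120.3 to 125.7 CPM at E11.5 against 135.8 to 137.2 CPM at E11. Neurod6 averaged 113.4 CPM at E11.5 against 14.2 CPM at E11, and 26.0 CPM at E12. The part of these markers in the E11.5 level of the 34 genes was not tested.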

How the data were processed

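RNA of the frontal bone region was counted in 33 libraries of 11 stages. The deposited table holds raw read counts per gene, whole numbers made by the authors with cutadapt 1.9.1, HISAT2 2.0.1 and HTSeq 0.6.1 on GRCm38, per the submitters' processing notes. Which annotation and strand setting served the counting is not stated, so a gene and an antisense neighbour may share reads. Exonic length in bases stands in the same deposited table, per the file headers. Columns were tied to stages by name. Their final letters (a, b, c) are used as library names without further meaning.

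Symbols came from GENCODE M21 (GRCm38) and matched 55141 of 55401 genes. Counts were tested with edgeR 4.0.16 (R 4.3.3) after its expression filter, with TMM factors of 0.797 to 1.175 and 1 mean per stage in a fit of all 33 libraries (22 residual degrees of freedom). A gene passed at a Benjamini-Hochberg adjusted p below 0.05 over all 20073 genes. SEs are approximate, being the size of the log2 fold change over the square root of its F value. Log2 CPM used a prior count of 2, and CPM per kb is the mean over all libraries divided by exonic length.

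The 34 genes, their roles, the other lists and the comparisons around E13.5 were chosen with earlier results of these data known. In each role the genes described are the one with the highest CPM per kb, those with the largest and smallest contrast of E13.5 with its neighbours, and those called against their group. From the other lists come genes among the 3 called ones with the largest change in a list and comparison. Others of the 34 were added as examples.

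In simulated counts for E14.5 against E13.5 on 19173 genes, only 67, 67 and 66 genes were raised, by 1.5-fold, 2-fold and 4-fold. All other genes were kept level over the stages. Of the raised genes 41.8%, 65.7% and 93.9% were recovered, with 7 false calls. Alternatives were DESeq2 1.42.0, its size factors, scaling by totals, no filter, a stricter filter (10 counts and 1 CPM), a block on the column letter, only the libraries compared, removal of each library's trend of counts on gene length, leaving out the E11.5 and E12 libraries, and dropping each library in turn. The fit without the E12 libraries and the E13.5 library c was added after seeing the data. No 2 libraries of a stage had identical counts, and the lowest chi-square per gene between them was 1.85. It was 21.6 to 125 between the E12 libraries. Between the E13.5 library c and libraries a and b it was 63.1 and 67, and in all other pairs it was at most 11.4. Promoter windows came from RefSeq (GRCm38.p6). Figures were drawn with matplotlib 3.10.9.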

Additional observations from a re-analysis of the deposited data

How the results depend on the processing

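The counts of the 34 genes that were higher at E10.5 against E8.5 (34), lower at E14.5 against E13.5 (34) and higher at E13.5 against the mean of its neighbours (33 or 34) held in every alternative run for them. Smaller counts were less stable, and the cause was not tested. Counts over all genes also shifted strongly in some runs. These were 5 counts with totals and 2 without the E12 libraries and the E13.5 library c. With only the libraries compared 3 did so, and with the length trend removed 1. The 4 genes lower at E14.5 against E8.5 were 2 with DESeq2's size factors, with DESeq2 and with the stricter filter, 1 with totals, and 1 to 2 with a library left out. The 2 lower at E12.5 against E10.5 were 1 with totals, 4 without the E12 libraries and the E13.5 library c, and 1 to 2 with a library left out. The 4 lower at E13.5 against E12.5 were 2 with totals or only the libraries compared and 2 to 4 with a library left out, with 2 when it was the E13.5 library c. The 14 higher at E11.5 against E11 were 22 without the E12 libraries and the E13.5 library c and 24 with only the libraries compared. The 3 higher at E12 against E11.5 were 0 with totals or only the libraries compared and 1 to 3 with a library left out. The 10 higher at E12.5 against E12 were 4 with the length trend removed. The early minus synaptic and transmitter score at E11, -0.69, was -0.32 with the later-maturing genes counted as synaptic.

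Some changes turned their sign, and 1 of them was a call: Elavl2 at E14.5 against E8.5, lower by the main scaling (-0.36), was 0.0772 with totals. The others had not passed. With totals they were Crmp1 at E12.5 against E10.5 (0.0857) and Elavl4 at E13.5 against E12.5 (-0.0056). Map1b at E13.5 against E12.5 (-0.26) was 0.13 without the E12 libraries and the E13.5 library c, and Nhlh1 was -0.0697 with the length trend removed. With a library left out, the range at E12.5 against E10.5 was -0.0172 to 0.0421 for Nhlh2, -0.0428 to 0.14 for Slc32a1, -0.10 to 0.0141 for Crmp1 and -0.0048 to 0.13 for Celf3. At E13.5 against E12.5 it was -0.14 to 0.23 for Elavl2, -0.13 to 0.15 for Elavl4, -0.48 to 0.0844 for Map1b and -0.0065 to 0.35 for Tubb3.

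Of 165 correlations between same-letter libraries of different stages, 5 were above 0.1, the median was -0.003 and the lowest was -0.58. The 3 lowest were those between E12 and E13.5, at -0.38, -0.23 and -0.58 for letters a, b and c. Whether a letter stands for anything shared between stages was not tested. With a replicate block on the letter, 20 genes were higher and 4 lower at E13.5 against E12.5, as without it, Elavl4 was -0.0019, and the 4 lower at E14.5 against E8.5 were 3. Scaling by totals moved the median of all genes by 0.43 at E14.5 against E8.5, 0.17 at E10.5 against E8.5, 0.12 at E12.5 against E10.5, 0.15 at E14.5 against E13.5, 0.12 at E11.5 against E11, -0.37 at E12 against E11.5 and 0.26 at E12.5 against E12. The share of calls that were higher was then 71.34%, 72.49%, 68.39%, 60.35%, 69.39%, 30.96% and 65.75% in that order, and 55.05%, 57.01%, 52.23%, 47.1%, 46.69%, 48.31% and 50.87% with TMM. It was 58.21% at E11.5 against E11 with DESeq2's size factors, 56.88% with no filter, 57.37% with DESeq2, and 40.45% at E10.5 against E8.5 with the length trend removed. With 3 libraries a stage, real changes can be missed, but how many was not measured. In the simulated counts for E14.5 against E13.5, 41.8% of 1.5-fold and 65.7% of 2-fold changes were recovered. Few genes changed there, which makes the adjusted p stricter than in the data, where 24.0% of genes were higher and 26.9% lower. The recovered shares therefore do not give the sensitivity of the tests on the data.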
